A study of Homo sapiens and Mus musculus with 36 samples.

Results

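The apolipoprotein L (APOL) genes form a cluster on human chromosome 22. The 5 genes described here, APOL1, APOL2, APOL3, APOL4 and APOL6, were taken by their symbols from the RNA sequencing counts of HuH-7, a human hepatocellular carcinoma line. They are 5 of 26457 symbols listed in the 12 libraries of guide-edited cells, and 3 of them (APOL1, APOL2 and APOL6) are among the 15899 symbols listed in the 6 libraries of drug-treated cells. These 18 libraries are part of a series of 36, in which the gene for DOT1L was edited or the enzyme was inhibited. The 18 libraries of mouse lines were not used.

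DOT1L is the methyltransferase that modifies a lysine in the core of histone H3 along transcribed genes. HuH-7 cells carried the control guide sgNeg2 (genotype labelled WT) or 1 of 2 guides against DOT1L, sg1 and sg2 (genotype labelled DOT1L_KO), each without and with interferon (IFN), with 2 libraries in each of these 6 groups. In the other set, cells labelled WT received the vehicle DMSO or EPZ-5676, a DOT1L inhibitor, with 3 libraries each, and the inhibitor was given for 7 days. The type, dose and time of the IFN, the inhibitor's dose, and whether an edited culture was 1 clone or a pool, are not stated in the labels. The labels do not say whether replicates came from separate cultures, so the tests reflect only how far these libraries differ among themselves, which may be technical spread.

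APOL proteins bind lipids and membranes. APOL1 is the secreted member: it circulates on high-density lipoprotein particles and forms pores that kill trypanosomes, while the other members stay inside the cell. Most genes of the family respond to interferons, which signal through receptors, JAK kinases, STAT proteins and IRF factors. APOL3 acts together with the guanylate-binding proteins, which are interferon-induced GTPases, against bacteria in the cytosol. APOL6 holds a region related to the BH3 motif of the BCL2 family and is known for promoting cell death when overproduced.

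On GRCh38 (GENCODE 29), the members lie at chr22:36253010-36267530 on the plus strand (APOL1), chr22:36226203-36239954 on the minus strand (APOL2), chr22:36189124-36204840 on the minus strand (APOL4), chr22:36140330-36166177 on the minus strand (APOL3) and chr22:35648395-35668409 on the plus strand (APOL6). The start sites of APOL2, APOL4 and APOL3 lie at -13.056, -48.17 and -86.833 kb from that of APOL1 along the chromosome, and that of APOL6 at -604.615 kb. No other annotated gene overlaps any of the 5. The sixth gene of the cluster, APOL5, had at most 8 counts in any guide library, and is left out of the tests below.

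Library totals were 19580588 to 22649969 counts without IFN, 47594968 to 61227426 with IFN and 48912627 to 58628528 in the drug set. Histone and small non-polyadenylated RNA genes took 4.06 to 6.87% of counts without IFN, 0.0446 to 0.0574% with IFN and 0.0505 to 0.0529% in the drug set. The libraries without IFN therefore stand apart in kind as well as depth, and IFN and the kind of library cannot be told apart within the guide set. All 12 hepatocyte markers reached 1 CPM in the untreated sgNeg2 libraries, where their summed level was 18482 to 18630 CPM. CPM are counts scaled by library size to a common total, with TMM scaling except for marker lists. DOT1L itself, in CPM, was 75.5 and 73.1 with sgNeg2, 35.6 and 32.1 with sg1, and 40.4 and 34.8 with sg2. With IFN it was 108 and 109 with sgNeg2, 42.5 and 46.5 with sg1, and 66.8 and 66.7 with sg2, so all edited libraries were below their controls.

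In untreated control cells APOL6 and APOL2 were the abundant members. Per kilobase of annotated exon, sgNeg2 libraries held 5.56 ± 0.107 CPM of APOL6, 3.55 ± 0.0412 of APOL2, 0.262 ± 0.0237 of APOL1, 0.0474 ± 0.0568 of APOL3 and 0.0341 ± 0.0343 of APOL4 (SD, n = 2 each). The levels of APOL3 and APOL4 do not differ beyond their spread, while each of the other neighbours in this order is apart by more than its SD. In DMSO libraries, scaled separately, APOL2 was above APOL6 instead, at 3.11 ± 0.00146 and 2.23 ± 0.0729 CPM per kilobase (SD, n = 3 each). The exon lengths are those of GENCODE, and the annotation behind the counts may differ.

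**Figure D1:**
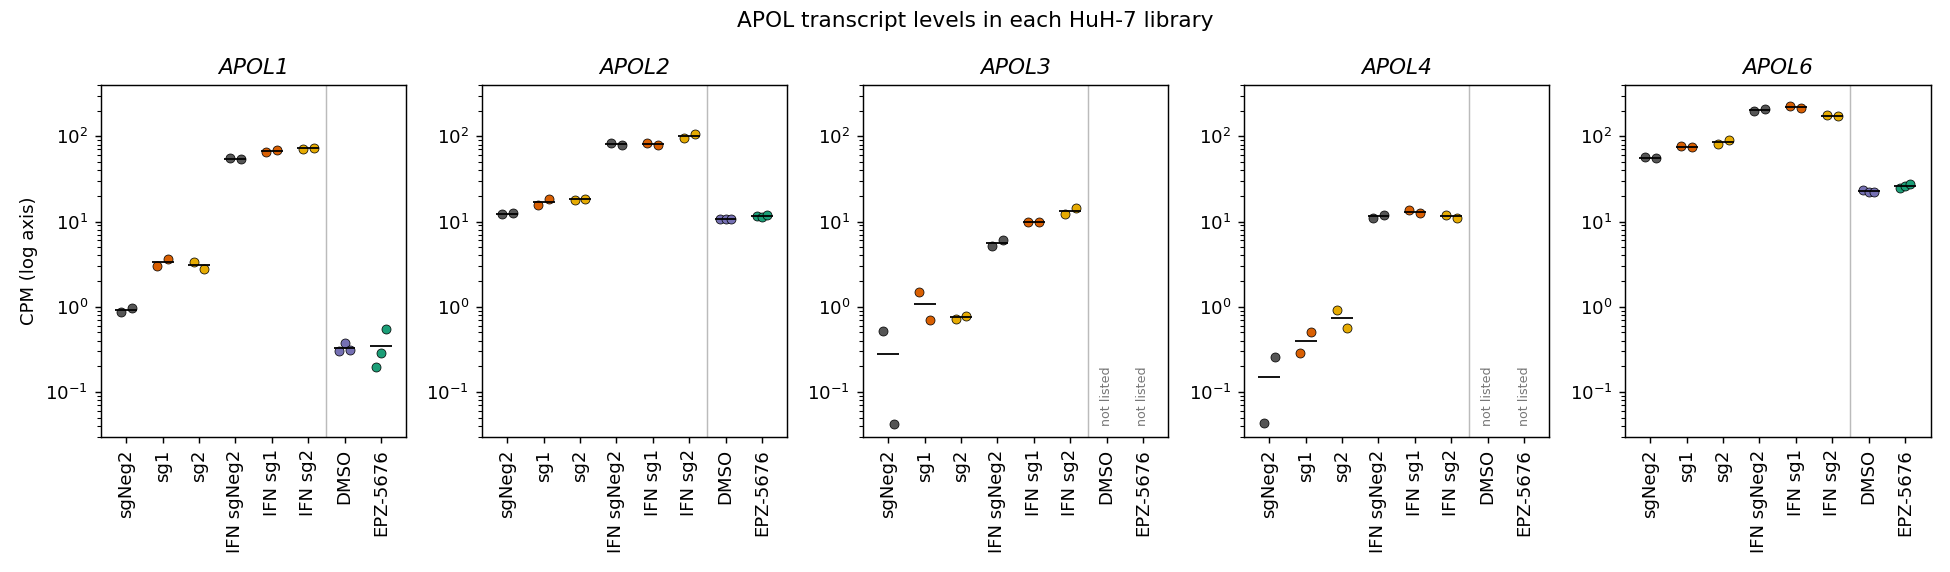
Level of each member in every HuH-7 library, as CPM on a log axis. Points are libraries and bars are group means; the grey line parts the guide set from the drug set, which was scaled separately. All 6 IFN libraries stand above the 6 untreated ones for every member, and untreated edited libraries (sg1, sg2) stand above sgNeg2.

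The first question was what DOT1L knockout did to the members in cells without IFN. APOL1, APOL2, APOL4 and APOL6 rose, and all 5 members were higher in each of the 4 edited libraries than in either control. The rise was 3.46-fold for APOL1, 3.66-fold for APOL4, 1.43-fold for APOL2 and 1.44-fold for APOL6. APOL3 missed the threshold.

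APOL1 stood at 0.861 and 0.979 CPM with sgNeg2, 2.99 and 3.67 with sg1, and 3.37 and 2.74 with sg2. The groups did not overlap. The mean rose from 0.920 ± 0.0835 (SD, n = 2) to 3.19 ± 0.407 CPM (SD, n = 4), a log2 change of 1.79 ± 0.17 (SE) with an adjusted p of 1.86e-05 (edgeR quasi-likelihood test, Benjamini-Hochberg over all 16448 genes tested). These levels rest on 20 to 88 counts per library.

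APOL2, which stays in the cytoplasm, stood at 12.3 and 12.5 CPM with sgNeg2, 15.7 and 18.4 with sg1, and 18.1 and 18.5 with sg2. Its log2 change was 0.52 ± 0.12 (edgeR adjusted p = 0.0158). APOL6 was at 57.0 and 55.5 CPM with sgNeg2, 76.0 and 75.0 with sg1, and 81.6 and 90.4 with sg2. It rose by the same log2 0.52 ± 0.12 (edgeR adjusted p = 0.0110). For these 2 abundant members the groups were apart, though the edited libraries exceeded the controls by less than for APOL1.

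APOL3 and APOL4 were near the limit of detection. APOL3 had 12 and 1 counts with sgNeg2, 36 and 17 with sg1, and 16 and 17 with sg2. The edited libraries were all higher, but the controls, at 0.517 and 0.0426 CPM, were themselves far apart. Its log2 change was 1.73 ± 0.57 (edgeR adjusted p = 0.0669). APOL4 had 1 and 6 counts with sgNeg2, 7 and 12 with sg1, and 20 and 12 with sg2. Its log2 change was 1.87 ± 0.55 (edgeR adjusted p = 0.0428), and its 95% interval runs from 1.61-fold to 8.31-fold.

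So 4 of 5 members were called higher, where 6.95% of all genes tested were (11.3% in either direction), and all 5 had every edited library above both controls, where 23.1% of all genes did. The members' median log2 change was 1.73 against 0.00 over all genes. With 2 control libraries, the calls depended on each: without sgNeg2 replicate 1 or 2 the adjusted p-values were 0.155 and 0.157 for APOL2 and 0.102 and 0.177 for APOL6, while APOL1 was called in all 16 alternatives. Without sgNeg2 replicate 1, sg1 replicate 2, sg2 replicate 1 or sg2 replicate 2, APOL4 had adjusted p-values of 0.388, 0.0688, 0.0827 and 0.0654; APOL2 had 0.055 without sg1 replicate 2. Without sgNeg2 replicate 1 or 2, the log2 change of APOL4 was 1.11 and 3.55, and that of APOL3 was 4.35, then called, and 0.80.

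The endothelial, leukocyte and fibroblast marker lists were higher in edited cells. The 5 podocyte markers summed to 36.4 to 36.8 CPM with sgNeg2, 42.0 to 42.4 with sg1 and 36.7 to 39.8 with sg2, so sg2 overlapped the controls. Summed hepatocyte markers ran from 18482 to 18630 CPM with sgNeg2, 15760 to 15808 with sg1 and 16873 to 18218 with sg2. Of 8 endothelial markers 1 reached 1 CPM, PECAM1, at 9.24 with sgNeg2, 17.3 with sg1 and 18.6 with sg2, and the summed list ran from 9.08 to 10.1 with sgNeg2, 17.7 to 18.2 with sg1 and 18.6 to 20.2 with sg2. KDR and EMCN had no counts in any guide library. Of 9 leukocyte markers 2 reached 1 CPM, and LCP1 stood at 11.1, 22.5 and 23.9 in the same order; the summed list ran from 15.9 to 16.2, 27.6 to 28.0 and 27.5 to 31.3. PTPRC and MS4A1, which define leukocytes and B cells, had no counts in any guide library. Of 6 fibroblast markers 1 reached 1 CPM with sgNeg2 and 2 with either DOT1L guide; COL1A1, a collagen, stood at 3.16, 12.3 and 10.3 in the same order, and the summed list ran from 3.21 to 6.75, 15.1 to 16.9 and 11.9 to 15.6. None of the 6 was at 0 in all these groups, and the part of these genes in the members' changes was not tested.

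IFN raised all 5 members in control cells, by log2 changes from 1.86 for APOL6 to 6.24 for APOL4. APOL1 stood at 54.9 and 54.4 CPM in IFN-treated sgNeg2 libraries, against 0.861 and 0.979 without IFN. That is 59.2-fold, a log2 change of 5.89 ± 0.15 (edgeR adjusted p = 4.99e-12). In counts, it is 2322 and 2520 against 20 and 23.

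APOL4 went from 1 and 6 counts to 470 and 555, or from 0.0431 and 0.256 to 11.1 and 11.99 CPM, a log2 change of 6.24 ± 0.42 (edgeR adjusted p = 3.81e-08). APOL3 stood at 0.517 and 0.0426 CPM without IFN and at 5.16 and 6.05 with it, a log2 change of 4.31 ± 0.51 (edgeR adjusted p = 6.53e-06). Both sets of libraries were far apart, while the size of either change depends on the control libraries with few counts. Without sgNeg2 replicate 1 or 2, the log2 change was 6.94 and 3.38 for APOL3, and 5.49 and 7.91 for APOL4, against 5.80 and 5.93 for APOL1, so the order of these 3 turns with the library left out.

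APOL2 stood at 12.3 and 12.5 CPM without IFN and at 82.5 and 79.9 with it, a log2 change of 2.71 ± 0.14 (edgeR adjusted p = 3.19e-09). APOL6 went from 57.0 and 55.5 to 197 and 210.0 CPM, a log2 change of 1.86 ± 0.13 (edgeR adjusted p = 6.75e-08). The members that were abundant before IFN thus had the smaller changes. With IFN, sgNeg2 libraries held per kilobase 23.3 ± 0.527 CPM of APOL2, 20.1 ± 0.898 of APOL6, 15.5 ± 0.0977 of APOL1, 2.64 ± 0.141 of APOL4 and 0.949 ± 0.107 of APOL3 (SD, n = 2 each), and neighbours in that order were all apart by more than their SDs.

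Of all genes tested, 33.0% were called higher with IFN in sgNeg2 cells and 67.8% in either direction, and 42.1% had both IFN libraries above both untreated ones, as all 5 members did. The members' median log2 change was 4.31, against -0.06 over all genes. In edited cells IFN also raised all 5, where 36.4% of all genes were called higher and 33.6% had all IFN libraries above all untreated ones: log2 changes were 4.45 ± 0.09 for APOL1, 2.36 ± 0.10 for APOL2, 3.64 ± 0.30 for APOL3, 4.45 ± 0.24 for APOL4 and 1.29 ± 0.09 for APOL6 (edgeR adjusted p-values from 1.96e-13 to 8.42e-08). The summed level of hepatocyte markers was lower with IFN, at 9828 to 9953 CPM in sgNeg2 libraries, with none at 0. Most of the list was lower, and TF and GPC3 were higher. Mean APOB went from 9643 to 1270 CPM, APOA1 from 661 to 197, APOH from 160 to 36.1 and TTR from 56.5 to 12.7. FGB went from 68.7 to 25.1, SERPINA1 from 552 to 381, HNF4A from 369 to 304 and TAT from 1.83 to 0.796. Without and with IFN, ALB was at 3121 and 2978 and AFP at 344 and 324. TF was at 2280 and 2989, and GPC3 at 1298 and 1373. The part of these genes in the members' changes was not tested.

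The DMSO libraries resemble the IFN libraries in depth and in content of histone and small non-polyadenylated RNAs. They served as another control, from the drug set. The labels do not say whether the drug set and the guide set were made together. Against DMSO, IFN-treated sgNeg2 libraries were 157-fold higher in APOL1 (log2 change 7.30 ± 0.11), 7.14-fold in APOL2 (2.84 ± 0.05) and 8.58-fold in APOL6 (3.10 ± 0.04), where 70.4% of genes were called in either direction. The fold of APOL2 was close to that against untreated sgNeg2 (6.56-fold), and those of APOL1 (59.2-fold) and APOL6 (3.62-fold) were larger with DMSO as control. Levels in the 2 untreated controls differed accordingly. APOL1 was 0.330 ± 0.0379 and APOL6 22.6 ± 0.738 CPM with DMSO (SD, n = 3), against 0.920 and 56.3 with sgNeg2. These levels come from sets scaled apart, and the untreated sgNeg2 libraries differ from the DMSO ones in kind and depth. The labels of the DMSO cells also name a vehicle and no guide, unlike those of sgNeg2. A change measured against DMSO therefore holds these differences as well as IFN. Scaled together with the IFN-treated sgNeg2 libraries, DMSO libraries held 0.318 CPM of APOL1 and 21.8 of APOL6. The size of the IFN change of APOL6 thus depends on which control is used, while its direction does not, and with DMSO it was above that of APOL2.

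**Figure D2:**
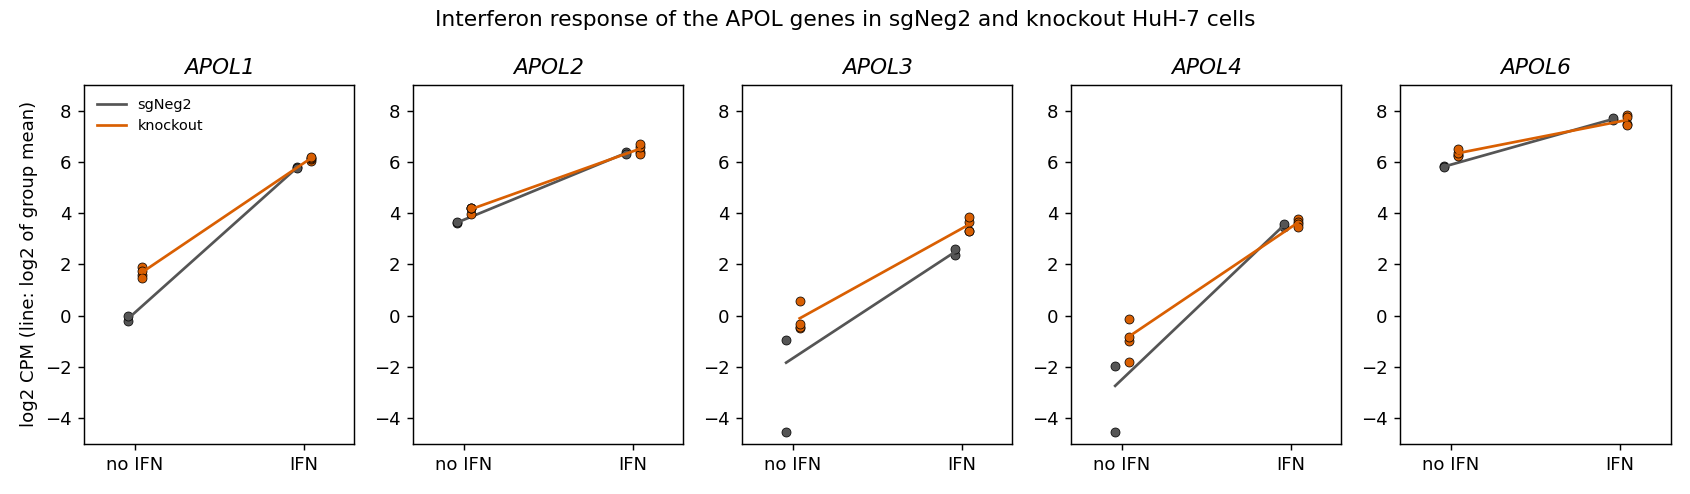
Interferon response of each member in control (grey) and edited (orange) cells, as log2 CPM. Points are libraries and lines join the log2 of the group means. The gap between the lines is wider without IFN for each of the 5 members. Of the 5 members only APOL1 passed the interaction test with the guides pooled.

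The next comparison was that of edited with control cells in the presence of IFN. APOL1 and APOL3 rose, and APOL2, APOL4 and APOL6 did not pass the test. APOL1 stood at 54.9 and 54.4 CPM with sgNeg2, 65.8 and 69.3 with sg1, and 71.0 and 73.6 with sg2. The groups did not overlap, and the log2 change was 0.36 ± 0.09 (edgeR adjusted p = 0.0204), or 1.28-fold. APOL3 stood at 5.16 and 6.05 CPM with sgNeg2, 9.95 and 9.81 with sg1, and 12.4 and 14.4 with sg2. It was 2.08-fold higher in edited cells, a log2 change of 1.05 ± 0.30 (edgeR adjusted p = 0.0350).

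APOL2 was at 82.5 and 79.9 CPM with sgNeg2, 83.9 and 78.5 with sg1, and 95.4 and 105.0 with sg2. Its log2 change was 0.16 ± 0.11, with a 95% interval from -0.07 to 0.39 (edgeR adjusted p = 0.404). APOL4 was at 11.1 and 11.99 CPM with sgNeg2, 13.5 and 12.6 with sg1, and 11.9 and 11.01 with sg2. The groups overlapped for both, and the log2 change of APOL4 was 0.09 ± 0.21 (95% interval -0.37 to 0.55, edgeR adjusted p = 0.854). APOL6 was at 197 and 210.0 CPM with sgNeg2, 225 and 216 with sg1, and 178 and 173 with sg2. The control libraries lay between those of the 2 guides, and the log2 change was -0.04 ± 0.11 (95% interval -0.28 to 0.20, edgeR adjusted p = 0.873), with a sign that turned in some alternatives.

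With IFN 2 of 5 members were called higher, against 7.11% of all genes tested (12.4% in either direction). Both had all edited libraries above both controls, as 13.1% of all genes did, and the members' median log2 change was 0.16 against -0.06. Neither call held without IFN sgNeg2 replicate 1 (adjusted p = 0.137 for APOL1 and 0.242 for APOL3) or replicate 2 (0.156 and 0.146), and APOL3 also lost its call without IFN sg2 replicate 1 or 2 (0.0695 and 0.0614). The endothelial, leukocyte and fibroblast lists were again higher in edited cells, and so was the podocyte list. Summed over the list, with sgNeg2, sg1 and sg2, endothelial markers ran from 2.84 to 4.01, 7.51 to 9.47 and 6.402 to 6.54 CPM. Podocyte markers ran from 28.4 to 30.0, 38.6 to 38.7 and 43.8 to 44.0 CPM, and hepatocyte markers from 9828 to 9953, 10088.5 to 10184 and 9037 to 9160. Leukocyte markers ran from 10.1 to 10.7, 15.6 to 17.4 and 16.1 to 17.0 CPM, and fibroblast markers from 1.37 to 1.67, 9.70 to 12.6 and 11.8 to 12.6 CPM. KDR, EMCN, PTPRC and MS4A1 were at 0 in all IFN libraries, and COL1A2, COL3A1 and DCN in those with sgNeg2. The part of the other markers in these changes was not tested.

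Whether the IFN change itself differed between edited and control cells was tested as an interaction. For APOL1 it did: its IFN change was smaller in edited cells by a log2 of 1.44 ± 0.19 (95% interval of the difference -1.85 to -1.02, edgeR adjusted p = 0.00328), going from 59.2-fold in sgNeg2 cells to 21.8-fold in edited ones. The level reached with IFN was higher in edited cells, as given above. The interaction was negative for each of the other members but did not pass the test: -1.78 ± 0.60 for APOL4 (adjusted p = 0.214), -0.68 ± 0.65 for APOL3 (0.706), -0.56 ± 0.16 for APOL6 (0.145) and -0.35 ± 0.16 for APOL2 (0.380). Here, with the guides pooled, 1 of 5 members was called lower, where 0.298% of all genes were. Fitted in 6 groups, APOL6 (-0.57, edgeR adjusted p = 0.00049) and APOL2 (-0.36, 0.0465) were called lower too. APOL6 was also called with sg1 alone (0.000893) and sg2 alone (0.00336), APOL2 with sg1 alone (0.00383) and APOL4 with sg2 alone (0.0277). Over all genes these fits called 1441, 2641 and 2668 in the interaction, against 83 with the guides pooled. Without sgNeg2 replicate 1 or 2 the adjusted p of APOL1 was 0.0683 and 0.0668.

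The 2 guides were compared with each other to see whether pooling them hid differences. Without IFN no member differed between sg2 and sg1 in edgeR's test (0 of 5), where 0.0304% of all genes did; DESeq2 called neither APOL2 nor APOL6 and gave no adjusted p for the other members. APOL6 (log2 difference 0.19 ± 0.06) and APOL4 (0.90 ± 0.41) had unadjusted p-values of 0.00723 and 0.0468, and the differences were -0.12 ± 0.15 for APOL1, 0.10 ± 0.09 for APOL2 and -0.52 ± 0.48 for APOL3. Without sg2 replicate 1, APOL6 was called (0.26). With IFN, 34.4% of all genes differed between the guides, and 2 of 5 members did, in opposite directions. APOL2 was higher with sg2 by a log2 of 0.30 ± 0.07 (edgeR adjusted p = 0.00665) and APOL6 was lower by 0.33 ± 0.06 (edgeR adjusted p = 0.00079), a share of members close to the background. The others were at 0.10 ± 0.08 (APOL1, edgeR adjusted p = 0.362), 0.44 ± 0.27 (APOL3, 0.237) and -0.19 ± 0.19 (APOL4, 0.474). In a fit of the 6 IFN libraries alone, APOL3 was called too (edgeR adjusted p = 0.0125). Leaving out IFN sg1 replicate 2 or IFN sg2 replicate 2 ended the call of APOL2 (adjusted p = 0.0627 and 0.0999).

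Taken one guide at a time with IFN, APOL6 had a log2 difference from sgNeg2 of 0.12 with sg1 (edgeR adjusted p = 0.0152) and -0.22 with sg2 (edgeR adjusted p = 0.0337). APOL2 was at 0.00 with sg1 and 0.30 with sg2 (edgeR adjusted p = 0.0122). APOL1 was higher with either guide, by 0.31 and 0.40. APOL3 was at 0.82 with sg1, where it lost its call (edgeR adjusted p = 0.0784), and at 1.26 with sg2, and APOL4 was at 0.18 and -0.0095. Without IFN, APOL1 rose by 1.85 with sg1 and 1.73 with sg2, APOL2 by 0.46 and 0.57, and APOL6 by 0.43 and 0.61. APOL4 was at 1.37 with sg1, where it lost its call (edgeR adjusted p = 0.0632), and at 2.27 with sg2 (edgeR adjusted p = 0.0185), and APOL3, not called with either, was at 1.96 and 1.44. Fitted this way more genes are called over the whole table (6465 with sg1 and 4109 with sg2 in the comparison with IFN, against 2037 with the guides pooled).

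The inhibitor was tested in its own set of libraries, in which APOL3 and APOL4 are not listed. APOL6 rose with EPZ-5676, from 23.5, 22.2 and 22.2 CPM with DMSO to 24.7, 26.1 and 27.9. The libraries did not overlap, and the log2 change was 0.21 ± 0.06 (edgeR adjusted p = 0.00307), or 1.16-fold. It was called in all 10 alternatives, at 0.17 to 0.26. APOL2 was at 10.8 CPM in all 3 DMSO libraries and at 11.6, 11.4 and 11.9 with EPZ-5676, a log2 change of 0.10 ± 0.08 (95% interval -0.06 to 0.27, edgeR adjusted p = 0.372).

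APOL1 had 16, 18 and 18 counts with DMSO and 11, 17 and 30 with EPZ-5676. The groups overlapped, and the log2 change of 0.06 ± 0.48 has a 95% interval from -0.90 to 1.02 (edgeR adjusted p = 0.945), which reaches 2.02-fold; the EPZ-5676 libraries differed among themselves, from 0.195 to 0.553 CPM. The value went to -0.45 without EPZ-5676 replicate 3. In all, 1 of 3 members was called higher, where 15.1% of all genes were (33.7% in either direction), and 2 of 3 had all treated libraries above all DMSO ones, as 21.3% of all genes did. Set beside each other, the log2 changes with knockout (no IFN) and with the inhibitor were 1.79 and 0.06 for APOL1, 0.52 and 0.10 for APOL2, and 0.52 and 0.21 for APOL6; the difference between these sets was not tested.

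**Figure D3:**
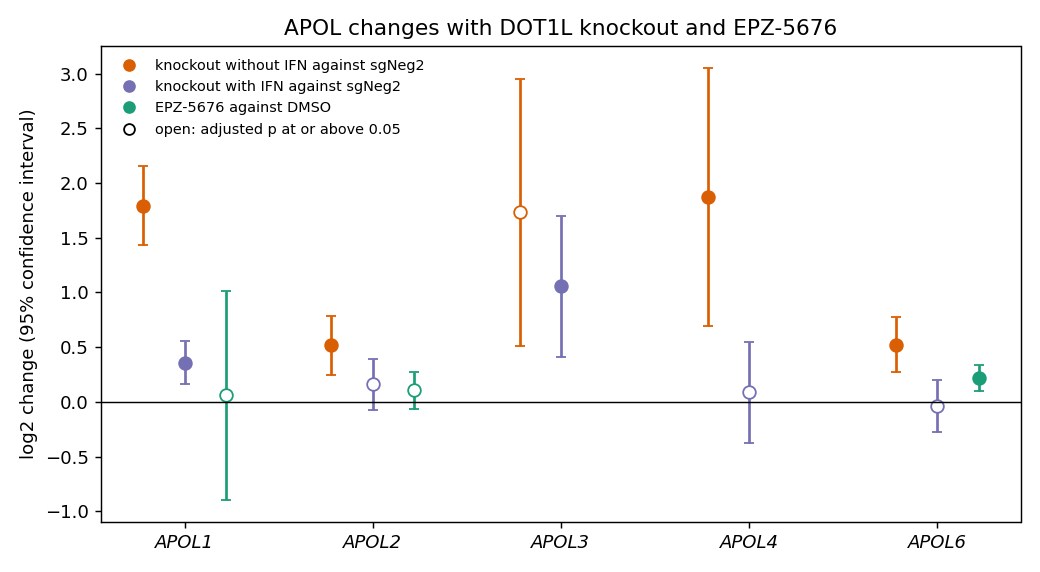
Log2 change of each member with DOT1L knockout without IFN (orange), with IFN (purple) and with EPZ-5676 (green), with 95% confidence intervals. Filled points have an adjusted p below 0.05; the orange points are the highest for each member, and APOL3 and APOL4 have no green point because they are not listed in that set.

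The genes beside the APOL cluster were followed as a comparison by position. Of 16 neighbours 10 were tested, and 0 of 10 were called by edgeR in knockout cells without IFN, where 11.3% of all genes were and their median log2 change was -0.11. HMOX1 (-0.29) and MYH9 (-0.24) had an unadjusted p below 0.05, and DESeq2 called 1 of the 10, MYH9. MYH9, which encodes a non-muscle myosin and is the nearest tested neighbour on the far side of APOL1, was at a log2 change of 0.02 with IFN in sgNeg2 cells, and RBFOX2, a splicing factor between APOL6 and APOL3, at 0.22. With IFN in sgNeg2 cells 4 of the 10 were called higher, near the 33.0% of all genes, led by the mitochondrial thioredoxin TXN2 (1.28 ± 0.14, edgeR adjusted p = 3.88e-06), and the median was 0.12. With knockout in the presence of IFN, MYH9 fell by 0.28 (edgeR adjusted p = 0.0267). With EPZ-5676 3 of the 10 fell, where 33.7% of all genes were called in either direction, the largest being HMOX1, the haem oxygenase, which fell by 0.39 (edgeR adjusted p = 2.82e-07).

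**Figure D4:**
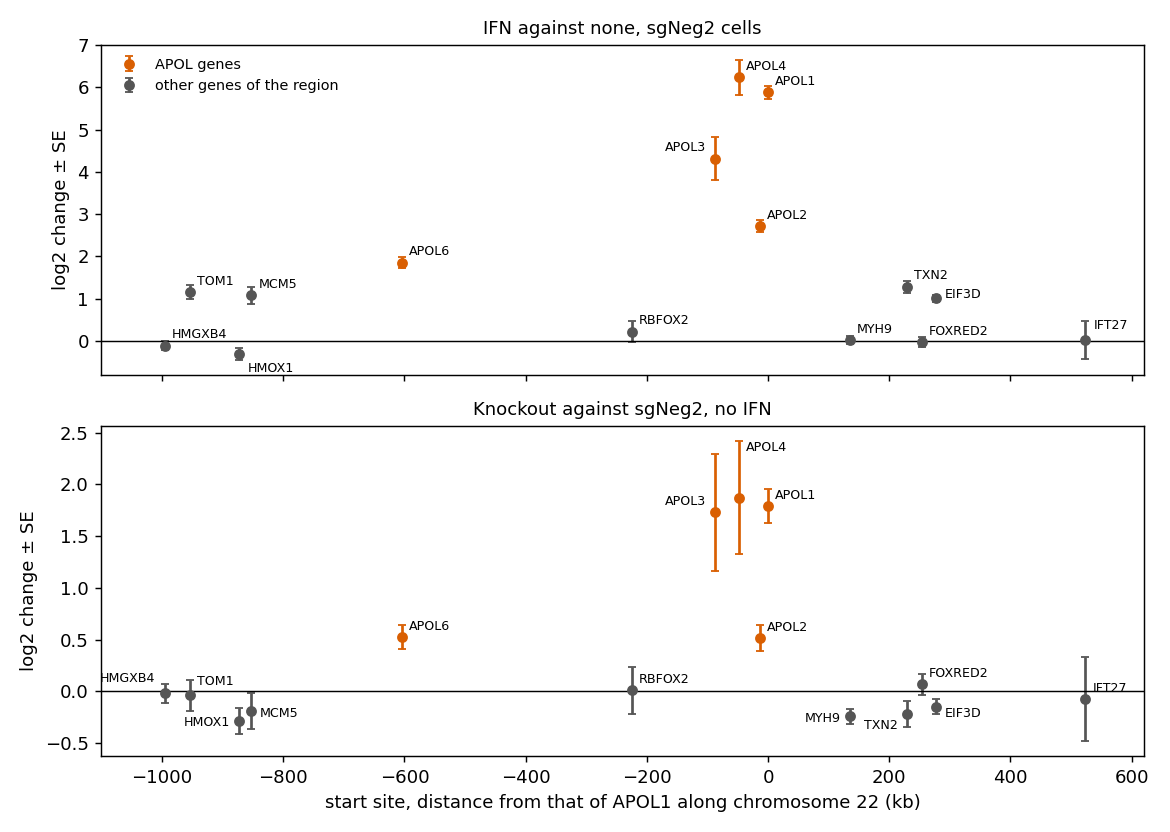
Log2 change with its standard error of each tested gene around the APOL cluster, against the distance of its start site from that of APOL1 in kb. In the upper panel (IFN in sgNeg2 cells) the APOL genes stand at 1.86 to 6.24 and the tested neighbours at 1.28 or below; in the lower panel (knockout without IFN) the APOL genes stand at 0.52 to 1.87 and no neighbour was called by edgeR.

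The counts of the lists below stand against the shares of all genes called in either direction, 11.3% in knockout without IFN, 12.4% with IFN, 67.8% for IFN in sgNeg2 cells and 33.7% with EPZ-5676. Among the receptors, kinases and factors that carry interferon signals, 6 of 22 tested genes rose and 2 fell in knockout cells without IFN, with a median log2 change of 0.12 (0.12 also with CIITA, which had no counts in sgNeg2, left out). JAK2, a kinase of the interferon-gamma receptor, rose most (0.87 ± 0.14, edgeR adjusted p = 0.0014), and SOCS3, which inhibits JAK kinases, fell by 0.40 (edgeR adjusted p = 0.0464). With IFN, 3 of 22 were higher in edited cells, led by the interferon-lambda receptor IFNLR1 (1.06 ± 0.14, edgeR adjusted p = 0.000165), with a median of -0.04. IFN in sgNeg2 cells raised 13 and lowered 1 (median 0.64): BATF2, an interferon-induced transcription factor, rose by 5.83 ± 0.21 (edgeR adjusted p = 7.99e-11) and JAK1 fell by 0.37 (edgeR adjusted p = 0.00246). EPZ-5676 raised 8 of 21 and lowered 3 (median 0.07), with SOCS1 at 0.79 ± 0.20 (edgeR adjusted p = 0.00123) and IRF2 at -0.20 ± 0.06 (edgeR adjusted p = 0.00675).

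Of 13 tested genes for other inputs known to raise APOL1 (TLR3, TNF and NF-kB), 2 rose in knockout cells without IFN and 4 with IFN, and none fell, at medians of -0.01 and 0.11. The RNA sensor IFIH1 led without IFN (1.20 ± 0.18, edgeR adjusted p = 0.000915) and the RNA receptor TLR3 with IFN (1.38 ± 0.34, edgeR adjusted p = 0.0176). IFN in sgNeg2 cells raised 9 of 13 (median 0.92), led by IFIH1 at 1.85 ± 0.20 (edgeR adjusted p = 2.65e-06), and EPZ-5676 raised 5 of 13 (median 0.18), led by IFIH1 at 0.76 ± 0.29 (edgeR adjusted p = 0.0358).

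For the guanylate-binding proteins, with which APOL3 acts, each call for knockout, IFN and EPZ-5676 was a rise. In knockout cells without IFN 5 of 7 rose, led by GBP5 (4.51 ± 0.28, edgeR adjusted p = 6.01e-07), and the median was 1.96, or 1.56 with GBP6, which had no counts in sgNeg2, set at its lower bound. With IFN 5 of 7 were higher in edited cells, with GBP6 at 2.04 ± 0.53 (edgeR adjusted p = 0.025) and a median of 0.47. IFN in sgNeg2 cells raised all 7 (median 6.66, or 5.30 with GBP6 at its bound, at least 5.498-fold higher), led by GBP5 at 10.26 ± 0.18 (edgeR adjusted p = 1.80e-13). In the interaction 3 of 7 were lower, where 0.298% of all genes were, with GBP5 at -2.79 ± 0.34 (edgeR adjusted p = 0.00209). The list's median was -1.20. EPZ-5676 raised 4 of the 5 tested, led by GBP5 at 2.64 ± 0.71 (edgeR adjusted p = 0.002), with a median of 0.87. GBP5 was near the limit of detection in both controls, at 0.0859 CPM in untreated sgNeg2 libraries and 0.0520 in DMSO libraries. The sizes of its changes against these controls, and of its interaction, are therefore uncertain.

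Of the proteins that circulate with APOL1 in trypanosome lytic particles, 3 were tested. APOA1, the main protein of high-density lipoprotein, fell by 0.60 in edited cells both without IFN (edgeR adjusted p = 0.0122) and with it (edgeR adjusted p = 0.0115), and by 0.34 with EPZ-5676 (edgeR adjusted p = 7.68e-36). No other tested gene of this list was called in these 3 comparisons, and the medians were -0.60, 1.07 and 0.01. All 3 fell with IFN in sgNeg2 cells (median -3.17), with the haptoglobin-related gene HPR lowest at -3.33 ± 0.43 (edgeR adjusted p = 1.64e-05); HPR and its near copy HP may share reads. APOL1 rose in these comparisons, apart from that with EPZ-5676, in which it was not called.

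Of the 14 genes listed for the BCL2 family, 2 rose and 1 fell in knockout cells without IFN (median -0.21). The pro-apoptotic BIK was at 2.27 ± 0.46 (edgeR adjusted p = 0.00597) and BMF at -0.81 ± 0.09 (edgeR adjusted p = 8.90e-05). The list and its medians include BECN1, which is not a family member in the strict sense and was not called in the comparisons given here. With IFN, 2 were higher and 1 lower in edited cells (median 0.04), with BIK at 1.86 ± 0.42 (edgeR adjusted p = 0.00986) and BCL2L1, which protects cells from death, at -0.40 ± 0.10 (edgeR adjusted p = 0.0227). EPZ-5676 raised 2 of 13 and lowered 4 (median -0.05), with BIK at 1.45 ± 0.40 (edgeR adjusted p = 0.00279) and BAD at -0.29 ± 0.09 (edgeR adjusted p = 0.00766).

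The genes with the most similar profile to each member were taken over the 12 guide libraries, from 13340 genes averaging 1 CPM or more, by the root mean square difference of log2 CPM after centring. For APOL1 they were LGALS3BP (difference 0.20, Pearson r 0.998), RARRES3 (0.28) and GBP2 (0.35). LGALS3BP, a secreted glycoprotein that binds galectins, had log2 changes of 1.93 with knockout and 5.77 with IFN in sgNeg2 cells, against 1.79 and 5.89 for APOL1. For APOL4 they were TAP1, which carries peptides for class I antigen presentation (0.42), then APOL1 (0.44) and EPSTI1 (0.50). For APOL3 they were GBP7 (0.57), the pseudogene GBP1P1 (0.65) and CD274, which encodes the checkpoint ligand PD-L1 (0.68).

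The genes nearest to APOL2 were GPATCH4 (0.14), SHFM1 (0.15) and the transcription factor MYC (0.16), and those nearest to APOL6 were the chaperone DNAJA1 (0.07), NOP58 (0.09), a protein of small nucleolar particles, and WBP5 (0.09). These are descriptions over libraries that share IFN, library kind and depth, which make up most of each profile. The genes nearest to APOL1, APOL3 and APOL4 had large IFN changes (4.88 to 5.98 on the log2 scale in sgNeg2 cells). Those nearest to APOL2 and APOL6 had smaller ones (1.80 to 3.07). As the genes were chosen by these same profiles, this follows from the choice, as do the like values of LGALS3BP and APOL1.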

How the data were processed

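The deposited values are whole-number counts per gene symbol, 1 file per library; per the submitters' processing notes, the authors used Trim Galore, HISAT2 2.2.1, SAMtools 1.9 and DESeq2 1.36.0. The counting program, annotation, strand setting and treatment of reads that match several genes are, in the sources used here, not given. Members and gene lists were chosen with earlier results of these data known. Low genes were removed with filterByExpr (count minimum 10, total minimum 15), and counts were TMM-scaled and tested with quasi-likelihood F tests (robust) in R 4.3.3 and edgeR 4.0.16. The 12 guide libraries were fitted together, with the guides pooled as knockout, or in 6 groups for guide differences, and the drug set apart (16448 and 15023 genes tested). Calls were made at a Benjamini-Hochberg adjusted p under 0.05; SEs come from the F statistic. The drug files list no gene with a count below 1. All listed members are given in every comparison; from each list, the called genes with the largest rise and fall are named. Tests were checked on simulated data. Replicate libraries differed beyond counting noise (chi-square per degree of freedom 2.81 to 24.7). Alternatives were RLE scaling, no filter, DESeq2 1.42.0, a replicate block, guides apart or in 6 groups, smaller fits, histone and small non-polyadenylated RNA genes left out, DMSO as control, and each library left out. IFN libraries thinned to the untreated depth were added after seeing the data. No promoter or protein sequence of the members was used here.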

Additional observations from a re-analysis of the deposited data

Results flagged for a closer look

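Of 10 groups of 4 edited libraries (5 members, without and with IFN), 2 had a library far from the other three: sg1 replicate 1, at 15.7 CPM for APOL2 and 1.48 CPM for APOL3, both without IFN. Chance marks about 1 group in 20. APOL2 was lowest and APOL3 highest in that library.

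The IFN change of APOL1 differed between edited and control cells by a log2 of -1.44 in the interaction test. Between the guides with IFN, sg2 minus sg1 was 0.30 for APOL2 and -0.33 for APOL6, in a comparison that called 34.4% of all genes.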

How the results depend on the processing

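Of the members' single values, 208 kept direction and side of the threshold with a library left out, 19 lost a call, 2 gained one and 9 turned in sign; under the other settings these numbers were 275, 5, 11 and 6, leaving out values to which DESeq2 gave no adjusted p. In knockout cells with IFN, 1 member was called with the replicate block and 4 with sg2 alone; in the interaction, 3 were called with 6 groups, with sg1 alone and with sg2 alone. With DMSO as control for IFN, 3 of 3 listed members were called. Leaving out each library gave 2 to 4 calls in knockout without IFN, 0 to 2 in knockout with IFN, 0 to 1 in the interaction, 0 to 1 between guides without IFN and 1 to 2 with IFN. Replicate numbers were not taken to pair libraries, since deviations of same-numbered libraries correlated at -0.020 to 0.043, though each of the 6 drug-set libraries did correlate best with its own number, a hint from the data only. With the replicate block, APOL1 with IFN had an adjusted p of 0.0563 and APOL4 without IFN 0.0841, and no other member's call changed; over all genes it called 1368 in knockout without IFN, 1528 with IFN and 28 in the interaction.

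Values that turned in sign were not called in the fit reported. With IFN, APOL6 in knockout stood at 0.12 with sg1 alone, at 0.016 with histone and small non-polyadenylated RNA genes left out and at 0.019 in the 6-library fit; with each library left out it ran from -0.10 to 0.022. APOL4 in the same comparison was -0.0095 with sg2 alone and -0.087 with thinned libraries. With each library left out, the interaction of APOL3 ran from -3.29 (without sgNeg2 replicate 1) to 0.31 (without sgNeg2 replicate 2). Between guides without IFN, APOL1 ran from -0.28 to 0.033, APOL2 from -0.0035 to 0.22 and APOL3 from -0.95 to 0.10. With EPZ-5676, APOL1 was -0.011 with the replicate block and ran from -0.45 to 0.34 with each library left out. The cause was not tested.

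APOL3 without IFN was called by DESeq2 (adjusted p = 0.00688) and with 6 groups (0.0353), and APOL4 without IFN lost its call in the 6-library fit (0.0859). Without IFN, 1 to 36 counts of APOL3 and APOL4 and 20 to 88 of APOL1 limit precision; counting intervals cover counting error only. Leaving out a control library leaves 1, assumed to vary like the other groups.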
